A study of Mus musculus with 4 samples.

Results

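The genes described here are those that mark microglia and macrophages, the resident and blood-derived phagocytes of the retina, and those that such cells switch on when they take up debris. There are 43 of them, chosen by symbol from a fixed set of names, out of 22558 gene symbols in the expression files. Of these, 42 have a line in the files of the day 1 control, the day 5 control and day 5 DTA. The transcription factor gene Spi1 is listed only under its older symbol Sfpi1 and is given apart. In the day 1 DTA file, which holds 5799 symbols, 6 of the 43 have a line. The mice were about 8 weeks old, their background was mixed (C57BL/6 and 129), and RNA of the whole retina was sequenced and reported as FPKM (fragments scaled to transcript length and to library size). Every mouse carried 1 R26R-DTA allele beside a wild-type one, which yields diphtheria toxin fragment A once Cre has acted. The DTA groups were Msi1-CreERT2/+; R26R-DTA/+ and the control groups +/+; R26R-DTA/+, each taken at day 1 and at day 5 after injury. Cre activity is tied to the Musashi 1 gene (Msi1) and to a ligand; the ligand, the cells in which Cre acted and the number of mice behind each library were not among the details at hand.

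Microglia are the resident macrophages of the central nervous system. In the undisturbed retina they lie in the plexiform layers, depend on signalling through the CSF1 receptor, and carry surface proteins such as P2RY12, TMEM119 and CX3CR1 with which they sense nucleotides and neuronal fractalkine. When photoreceptors die, microglia are known to move to the outer retina and engulf remains, and monocytes can enter from the blood. Receptors such as TREM2 and the Fc receptors have no strong signalling tail of their own and pair with the adaptors encoded by Tyrobp and Fcer1g, whose immunoreceptor tyrosine-based activation motif (ITAM) recruits the kinase SYK.

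With 1 library in each group there is no replicate, no standard deviation and no p-value for any gene. A gene was called higher or lower by size alone. Its difference of log2(FPKM + 1) had to be at least 1, its FPKM at least 5 in one of both libraries, and its difference larger than its own difference between the day 1 and day 5 controls. From the smallest FPKM steps, taken to be 1 fragment each, the depth was estimated at 73.5 M fragments for control and 99.0 M for DTA at day 1, and at 35.5 M for control and 28.8 M for DTA at day 5. The day 1 control and both day 5 libraries differed in what came with the retina. The summed level of 15 lens markers was 2309 FPKM in the day 1 control, 319 in the control at day 5 and 19.8 in day 5 DTA. That of 12 markers of pigment epithelium and melanocytes was 168, 43.5 and 19.6. Between DTA and control at day 5 the 15 lens markers had a median difference of -2.86, and 7 were called lower. The part of this in the members' day 5 values was not tested. The day 1 control stood apart in sex-linked genes. The X inactivation transcript Xist was at 0.00596 FPKM in the control at day 1 and at 53.7 and 60.4 in the control at day 5 and day 5 DTA. The Y-linked gene Ddx3y was at 15.6, 0.175 and 0.275 FPKM. By these genes the day 1 control read as male and both day 5 libraries as female, though sex was not labelled. Between the controls, sex and day cannot be told apart. Neither gene has a value in day 1 DTA, so comparisons with that library may also differ in sex.

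In control retina most of these genes were scarce. In the day 5 control 28 of the 42 measured members lay under 1 FPKM and 4 reached 5 FPKM, and in the control at day 1 4 did. The members at 5 FPKM or more in both controls were Ctss, Spp1, Cd63 and Cd9, which encode a lysosomal protease, the secreted matrix protein osteopontin and a pair of tetraspanins, and which other retinal cells are known to express as well. At day 5 in DTA 17 members reached 5 FPKM, 13 of them in that library alone of the day 5 pair. The summed level of the 42 was 109.9 FPKM in the control at day 1, 83.1 in that at day 5 and 304 in DTA at day 5. Cd63 and Cd9 had the highest levels in each of these libraries, so the sum does not measure myeloid cells alone.

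At day 5 the comparison asks how the levels of these genes stood after injury. Of the 42 measured members 16 were called higher and none lower, with a median difference of 1.30 over all 42. A call of lower needed 5 FPKM in the control at day 5, which only 4 members reached. Over all 22541 measured genes 2.96% were called higher and 0.776% lower, with a median of 0.06, and among the 9895 genes at 5 FPKM or more in one library the shares were 6.74% and 1.77%. By role, the calls fell on 7 of 9 shared myeloid genes, 3 of 8 activating receptors and adaptors, 5 of 11 activated phagocyte genes and 1 of 5 resident microglia genes. None of 4 MHC class II genes, 2 oxidase subunits or 3 macrophage and monocyte genes was called. None of these reached 5 FPKM in either day 5 library, so the size rule could have called none of them. A further 7 members differed by at least 1 but stayed under 5 FPKM. In whole retina, more cells of a type and more RNA per cell cannot be told apart.

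**Figure D1:**
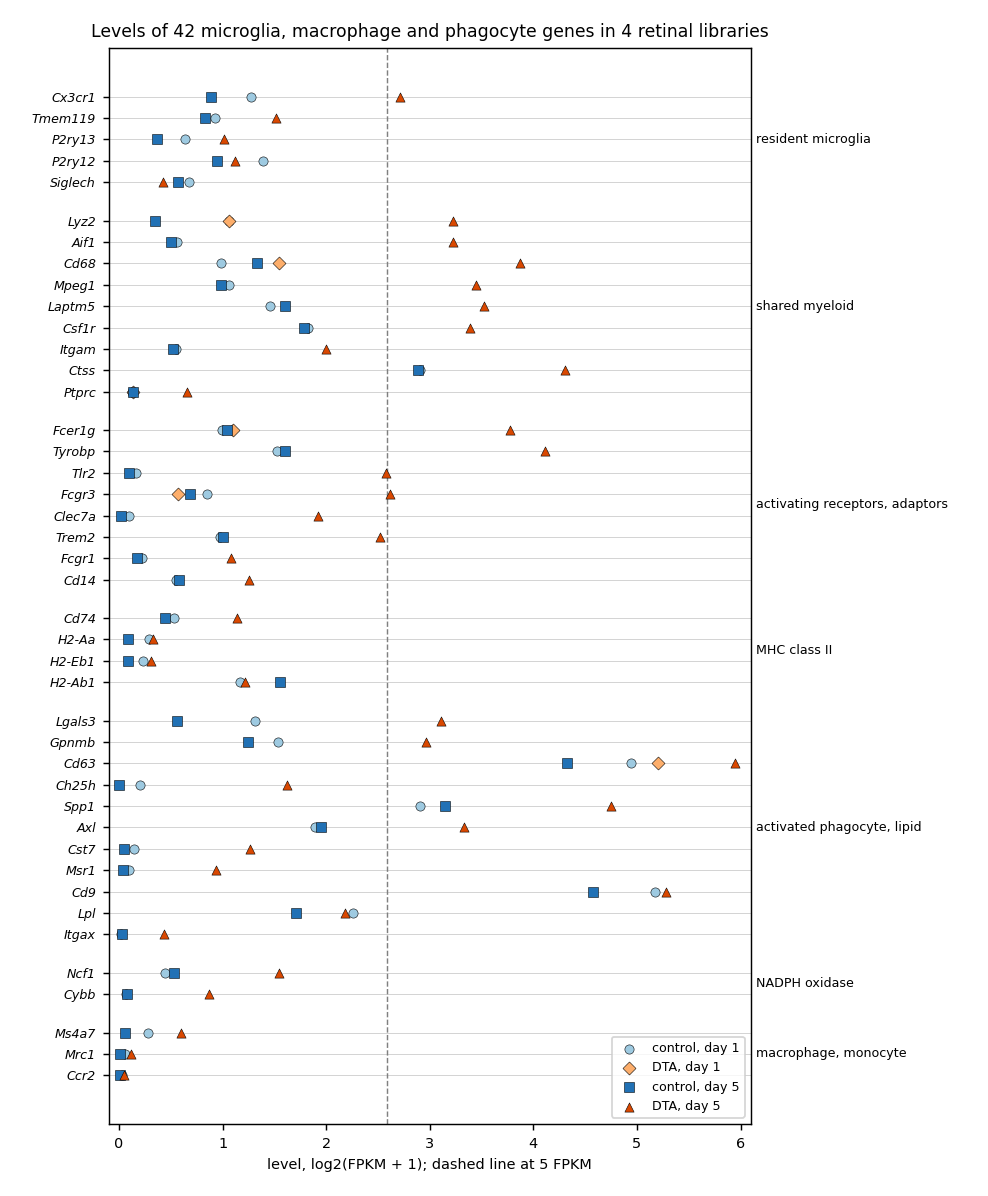
Level of each of the 42 measured members, as log2(FPKM + 1) on the horizontal axis, with 1 point per library and genes grouped by role. In 38 of 42 rows the triangle of day 5 DTA lies to the right of both controls; the diamonds of day 1 DTA exist for 6 genes.

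Day 5 DTA held the highest of the 3 full libraries' values for 38 of the 42 members, against 51.1% of all genes. The 4 exceptions were P2ry12, Siglech, H2-Ab1 and Lpl, each of which was highest in a control. The authors' lower confidence bound in day 5 DTA lay above the upper bounds of both controls for 32 members, against 27.1% of all genes. These bounds cover the assignment of fragments within 1 library and not the spread between mice, and for 5 members the FPKM itself lies outside them in at least 1 of the 3 libraries. FPKM is a share of a library, and rod transcripts, which take a large part of it, were lower: Gnat1, the rod transducin alpha subunit, stood at 6678 FPKM in the control at day 5 and 739 in day 5 DTA. Scaling the libraries by the median ratio multiplied day 5 DTA by 0.844 and left 14 of the 16 calls; Cx3cr1 and Fcgr3 then fell under 5 FPKM.

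The shared myeloid genes had the highest median of the roles, 1.93. Lyz2, which encodes the lysozyme of phagocytes (chromosome 10, 116714597 to 116719328, mm9), was listed at 1.09 FPKM in the control at day 1, 0.269 in that at day 5 and 8.32 in DTA at day 5, a day 5 difference of 2.88. Aif1, the calcium-binding protein IBA1 used to stain microglia (chromosome 17, 35307937 to 35312946), was listed at 0.470, 0.417 and 8.34 FPKM, a difference of 2.72. Cd68, a glycoprotein of phagocyte lysosomes (chromosome 11, 69477873 to 69479564), was listed at 0.982, 1.52 and 13.6 FPKM, 8.95-fold higher than in the control at day 5. All of these were low in both controls and high in day 5 DTA. Lyz2 has a near-identical neighbour, Lyz1, listed at 0.303 FPKM in the control at day 1, 0.0720 in that at day 5 and 1.95 in DTA at day 5, so some fragments could belong to either gene.

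Mpeg1, which encodes the pore-forming perforin 2 of macrophages, stood at 1.08 FPKM in the control at day 1, 0.975 in that at day 5 and 9.87 in DTA at day 5, a difference of 2.46. Laptm5, a lysosomal membrane protein of blood cells, stood at 1.75, 2.03 and 10.5 FPKM, 5.18-fold higher. Csf1r, the receptor on which microglia depend for survival, stood at 2.53, 2.44 and 9.49 FPKM, 3.89-fold higher. For each of these genes the controls differed by at most 0.14 on the log2 scale. Ctss, the protease cathepsin S that trims the class II invariant chain, was the most abundant of the group, at 6.51, 6.38 and 18.7 FPKM, and its 2.94-fold difference was the smallest fold among the 10 called members with at least 1 FPKM in both day 5 libraries. Itgam, the CD11b integrin chain, stood at 0.460, 0.433 and 2.99 FPKM (1.48) and Ptprc, the leukocyte phosphatase CD45, at 0.0892, 0.101 and 0.571 FPKM (0.51), both under the floor of 5 FPKM. The gene of the myeloid transcription factor PU.1, Spi1, read from its older symbol, stood at 0.334, 0.113 and 2.66 FPKM, a difference of 1.72 under the floor.

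**Figure D2:**
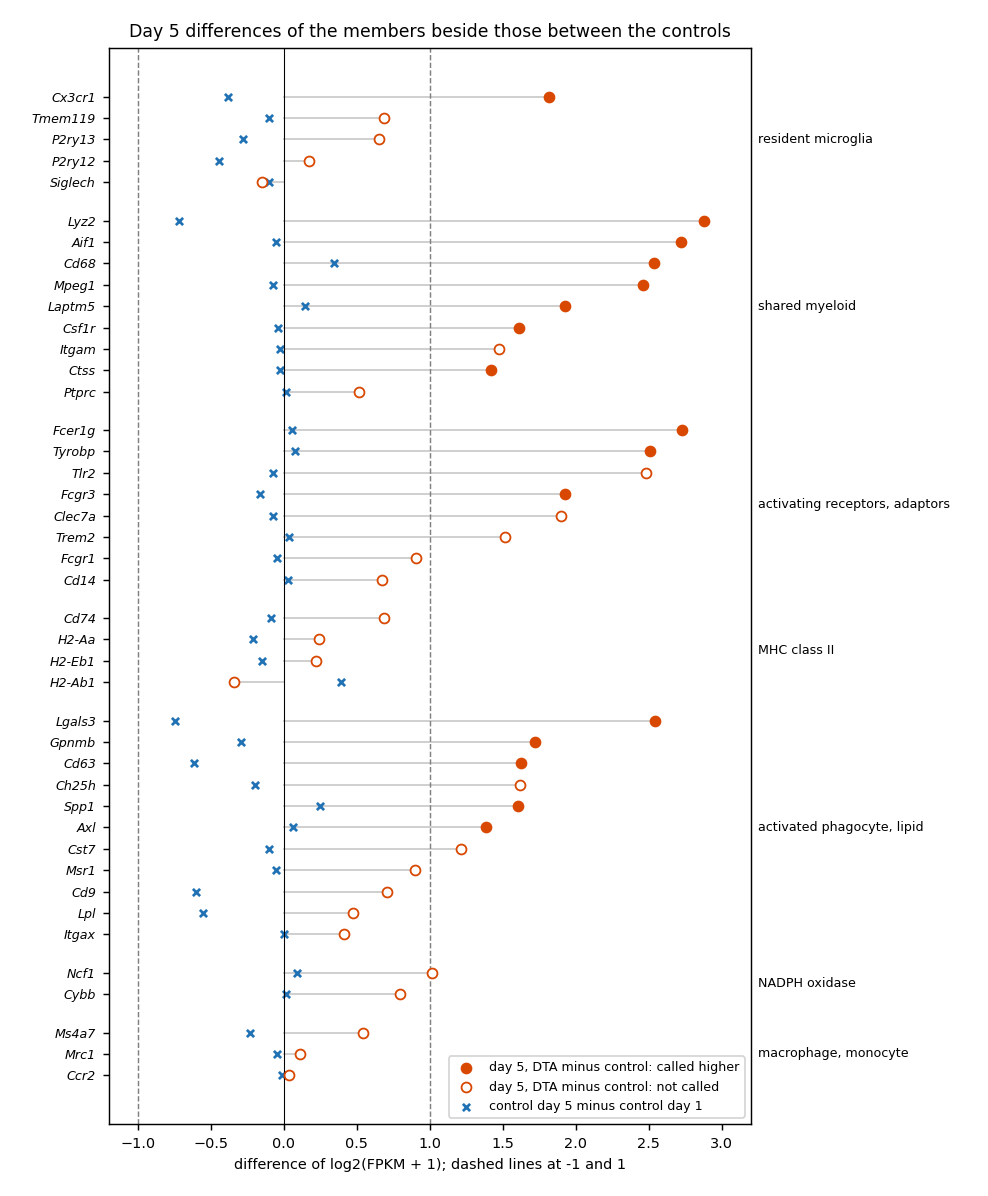
Day 5 difference of log2(FPKM + 1), DTA minus control, for each member (circles, filled where called) beside the difference between the day 5 and day 1 controls (crosses). The filled circles lie between 1.39 and 2.88, and all crosses lie between -0.75 and 0.39.

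Among activating receptors and their adaptors, both adaptors were called. Fcer1g, the common gamma chain of Fc receptors (chromosome 1, 173159703 to 173164480), was listed at 0.988 FPKM in the control at day 1, 1.06 in that at day 5 and 12.7 in DTA at day 5, and its 11.9-fold difference was the highest fold among the members with at least 1 FPKM in both libraries. Tyrobp, which encodes the adaptor DAP12 (chromosome 7, 31198807 to 31202598), was listed at 1.87, 2.04 and 16.3 FPKM, 8.00-fold higher. Fcgr3, the low affinity Fc gamma receptor III (chromosome 1, 172981300 to 172989534), was listed at 0.804, 0.610 and 5.13 FPKM, a difference of 1.93. These genes were alike in both controls and apart in day 5 DTA. Fcgr3 resembles its neighbour Fcgr2b, an inhibitory Fc receptor, which stood at 0.374, 0.265 and 2.04 FPKM, and some fragments could belong to either gene.

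The remaining receptors stayed just under the floor or well under it. Tlr2, a receptor for bacterial lipoproteins and host danger signals, stood at 0.124 FPKM in the control at day 1, 0.0673 in that at day 5 and 4.97 in DTA at day 5, a difference of 2.48. Trem2, the lipid-sensing receptor that pairs with DAP12, stood at 0.962, 1.01 and 4.74 FPKM, 4.70-fold higher. Clec7a, the beta-glucan receptor dectin 1 and a marker of activated microglia, stood at 0.0665, 0.0123 and 2.78 FPKM, a difference of 1.90. All of them were highest in day 5 DTA, though none was called. Fcgr1, the high affinity Fc receptor, differed by 0.91 and Cd14, the co-receptor for lipopolysaccharide, by 0.67, at 1.12 and 1.38 FPKM in day 5 DTA.

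Promoters of the called members with the largest differences that hold the letters GAGGAAG are shown because that run is the core of sites bound by PU.1, the factor of the myeloid lineage encoded by Spi1. Each line gives the 250 bases before the start of the RefSeq transcript on build GRCm38.p6, in the direction of transcription, with the run (or CTTCCTC, its other strand) in capitals. Fcgr3 lies on the minus strand at chr1:171059404-171059653, Laptm5 on the plus strand at chr4:130913066-130913315 and Cd63 on the plus strand at chr10:128909095-128909344.
Fcgr3: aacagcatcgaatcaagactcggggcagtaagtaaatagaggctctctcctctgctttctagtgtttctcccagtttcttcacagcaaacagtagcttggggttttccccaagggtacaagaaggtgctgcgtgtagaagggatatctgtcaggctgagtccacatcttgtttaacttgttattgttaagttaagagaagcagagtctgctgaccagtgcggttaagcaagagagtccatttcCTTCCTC
Laptm5: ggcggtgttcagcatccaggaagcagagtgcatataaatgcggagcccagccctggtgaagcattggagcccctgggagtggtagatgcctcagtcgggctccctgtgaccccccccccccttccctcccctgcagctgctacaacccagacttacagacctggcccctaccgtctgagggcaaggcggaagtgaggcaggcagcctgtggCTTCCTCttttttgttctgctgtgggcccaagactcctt
Cd63: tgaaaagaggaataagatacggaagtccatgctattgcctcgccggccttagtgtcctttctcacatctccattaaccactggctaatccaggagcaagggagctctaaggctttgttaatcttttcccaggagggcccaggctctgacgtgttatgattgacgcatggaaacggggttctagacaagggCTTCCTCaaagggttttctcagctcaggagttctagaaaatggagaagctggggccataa
In all of them the run is on the other strand, beginning 7 bases before the start in Fcgr3, 39 in Laptm5 and 60 in Cd63. The RefSeq promoters used, which do not cover every chromosome, include those of 34 of the 42 members. The run occurs on either strand in 10 of these (29.4%), against 3244 of 27025 genes (12%). A match describes the letters in this window and not a bound site.

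Activated phagocyte genes were higher in part. Lgals3, the galactose-binding lectin galectin 3 (chromosome 14, 47993535 to 48005842), was listed at 1.48 FPKM in the control at day 1, 0.477 in that at day 5 and 7.61 in DTA at day 5, a difference of 2.54. Gpnmb, a transmembrane glycoprotein of lysosome-rich phagocytes and of pigment cells, stood at 1.89, 1.36 and 6.80 FPKM, 4.99-fold higher. Spp1, which encodes osteopontin, stood at 6.47, 7.88 and 25.9 FPKM, 3.29-fold higher. These genes were highest in day 5 DTA, and Lgals3 had the largest difference between the controls of all members, -0.75. The 12 pigment cell markers went the other way, with 9 below 0 at day 5 and a median of -0.36; their part in the Gpnmb value was not tested.

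Cd63, a tetraspanin of lysosomes and exosomes (chromosome 10, 128345975 to 128349874), was the most abundant member, at 29.8 FPKM in the control at day 1, 19.1 in that at day 5 and 60.8 in DTA at day 5, 3.19-fold higher than in the control at day 5. Axl, a receptor tyrosine kinase for the uptake of apoptotic cells, stood at 2.70, 2.86 and 9.09 FPKM, 3.18-fold higher. Cd9, a tetraspanin that Müller glia also express, stood at 35.2, 22.8 and 37.9 FPKM, so that day 5 DTA lay near the day 1 control and the difference of 0.71 was not called. Lpl, the lipase that releases fatty acids from lipoproteins, stood at 3.80, 2.26 and 3.53 FPKM, lower in day 5 DTA than in the control at day 1. Several genes that mark lipid-laden or disease-associated microglia were scarce in both controls, and higher but under 5 FPKM in day 5 DTA. Ch25h, which makes 25-hydroxycholesterol, stood at 0.148 FPKM in the control at day 1 and was listed at 0 in that at day 5. In day 5 DTA Ch25h stood at 2.07 FPKM, a difference of 1.62. Cst7, the protease inhibitor cystatin F, stood at 0.109, 0.0326 and 1.40 FPKM (1.22), the scavenger receptor gene Msr1 at 0.0701, 0.0297 and 0.916 (0.90), and Itgax, the CD11c integrin chain, at 0.0159, 0.0167 and 0.352 (0.41).

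Resident microglia genes did not move as one. Cx3cr1, the fractalkine receptor (chromosome 9, 119957811 to 119977400), was listed at 1.42 FPKM in the control at day 1, 0.854 in that at day 5 and 5.53 in DTA at day 5, a difference of 1.82 that was called. Tmem119, a microglial membrane protein of unclear function, stood at 0.902, 0.776 and 1.85 FPKM (0.68). P2ry13, a receptor for ADP, stood at 0.560, 0.285 and 1.02 FPKM (0.65). Neither of the last pair was called. P2ry12, the ADP receptor that guides microglial processes (chromosome 3, 59020193 to 59066753), was listed at 1.63, 0.932 and 1.17 FPKM, and day 5 DTA lay between both controls. Siglech, a sialic acid-binding lectin of microglia, stood at 0.595, 0.488 and 0.343 FPKM, the lowest value being that of day 5 DTA, with a difference of -0.15.

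Relative to Csf1r, a ratio that no scaling of a library changes, P2ry12 stood at 64.3% in the control at day 1, 38.2% in that at day 5 and 12.4% in DTA at day 5, on the FPKM scale. Siglech stood at 23.5%, 20.0% and 3.6% of Csf1r, and Tmem119 at 35.6%, 31.8% and 19.5%. P2ry13 differed little between the day 5 libraries, at 22.1%, 11.7% and 10.8%. Cx3cr1 stood at 56.0%, 35.0% and 58.3%, so that day 5 DTA lay near the day 1 control. Aif1 stood at 18.6%, 17.1% and 87.9%, and Fcer1g at 39.0%, 43.6% and 133%. Ctss, also a shared myeloid gene, went the other way, at 257%, 261% and 197%. This ratio and these genes were chosen after the values were seen. They show unequal levels among the myeloid genes and have no replicate error.

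MHC class II genes, whose products present peptides to CD4 T cells, had no call and a median difference of 0.23. All lay under 5 FPKM in both day 5 libraries, so the size rule could have called none. Cd74, the invariant chain that guides class II molecules, stood at 0.447 FPKM in the control at day 1, 0.362 in that at day 5 and 1.19 in DTA at day 5, a difference of 0.69. H2-Aa, the alpha chain of the A molecule, stood at 0.225, 0.0589 and 0.253 FPKM. H2-Eb1, the beta chain of the E molecule, stood at 0.174, 0.0609 and 0.235 FPKM. For both chains day 5 DTA lay close to the day 1 control. H2-Ab1, the beta chain of the A molecule, stood at 1.24, 1.94 and 1.33 FPKM, and its day 5 difference of -0.34 was smaller in size than the 0.39 between the controls. In day 5 DTA about 5 fragments lie behind H2-Aa and 6 behind H2-Eb1, so these levels are known only roughly, by counting error alone. Of 10 genes of class II loading, regulation and costimulation none was called (median 0.26), and Ctsl, the protease cathepsin L, was the only gene of these at 5 FPKM or more, with a difference of 0.61.

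The class II promoters are shown with ATTGG, the core of the Y box that is bound by the factor NF-Y in class II genes, in capitals. They are again 250 bases before the RefSeq start on GRCm38.p6, H2-Aa on the minus strand at chr17:34287824-34288073 and H2-Eb1 on the plus strand at chr17:34305617-34305866.
H2-Aa: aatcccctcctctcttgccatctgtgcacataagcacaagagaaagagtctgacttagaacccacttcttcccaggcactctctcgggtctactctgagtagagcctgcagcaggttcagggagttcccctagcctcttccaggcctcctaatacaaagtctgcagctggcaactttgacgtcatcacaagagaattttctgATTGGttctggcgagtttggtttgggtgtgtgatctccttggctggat
H2-Eb1: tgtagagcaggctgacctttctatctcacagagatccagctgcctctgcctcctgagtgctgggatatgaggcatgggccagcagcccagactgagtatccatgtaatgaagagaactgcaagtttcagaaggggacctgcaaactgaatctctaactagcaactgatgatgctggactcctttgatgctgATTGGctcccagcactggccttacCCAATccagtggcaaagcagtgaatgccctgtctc
The run begins 48 bases before the start in H2-Aa and 59 in H2-Eb1, which also holds CCAAT, its other strand, beginning 35 bases before the start. ATTGG on either strand occurs in 14 of the 34 members with a promoter (41.2%), against 37.5% of the 27025 genes, so these letters are common.

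The phagocyte NADPH oxidase makes superoxide from its membrane subunits, encoded by Cybb and Cyba, and cytosolic subunits such as that of Ncf1. Ncf1 stood at 0.358 FPKM in the control at day 1, 0.443 in that at day 5 and 1.91 in DTA at day 5, a difference of 1.01 under the floor. Cybb stood at 0.0455, 0.0561 and 0.831 FPKM (0.79). Both were highest in day 5 DTA and neither was called. Of 4 other subunit genes 1 was called, Cyba at 3.67, 3.12 and 9.57 FPKM, 3.07-fold higher, and all 4 were above 0 (median 0.83).

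The 3 members that mark perivascular macrophages or monocytes were scarce, all under 1 FPKM where measured. Ccr2, the receptor with which monocytes leave the bone marrow and follow CCL2, stood at 0.0180 FPKM in the control at day 1, 0.00788 in that at day 5 and 0.0324 in DTA at day 5, which corresponds to about 4, 1 and 3 fragments. Mrc1, the mannose receptor of perivascular macrophages, stood at 0.0381, 0.00499 and 0.0857 FPKM. Ms4a7, a membrane protein of border and blood-derived macrophages, stood at 0.217, 0.0379 and 0.512 FPKM. The authors' bounds of the day 5 libraries overlapped for Ccr2 (0 to 0.0356 in control and 0 to 0.0698 in DTA). They did not for Mrc1 (0 to 0.0144 and 0.0471 to 0.13), with about 1 and 7 fragments behind its values. The bounds of Ms4a7 did not overlap either (0 to 0.183 and 0.186 to 0.838), with about 2 and 20 fragments.

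**Figure D3:**
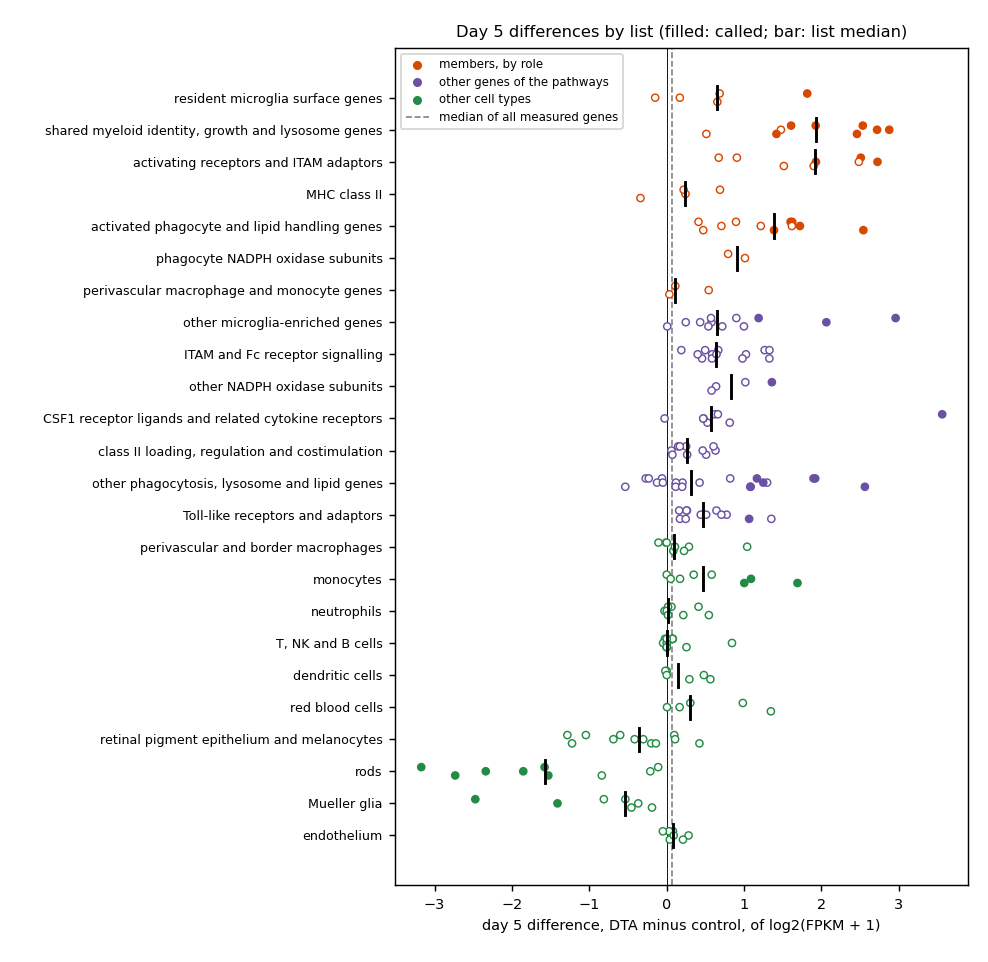
Day 5 differences of log2(FPKM + 1), DTA minus control, with 1 point per gene, for the members by role, for other genes of the same pathways and for markers of other cell types; black bars are list medians and the dashed line is the median of all measured genes, 0.06. Shared myeloid genes and activating receptors have the highest medians, 1.93 and 1.91, and rods the lowest of those drawn, -1.58. Lens markers, whose median was -2.86, and 9 housekeeping genes, whose median was 0.30, are not drawn. Among all genes at 5 FPKM or more in one library the median was 0.26.

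Other genes of the same pathways gave the following counts at day 5. Of 8 genes of CSF1 receptor ligands and related cytokine receptors 1 was called, Csf1, the ligand of the CSF1 receptor, at 1.39 FPKM in the control at day 1, 0.970 in that at day 5 and 22.3 in DTA at day 5, a difference of 3.56. Il34, the other ligand of that receptor, named after its values were seen, stood at 3.01, 3.36 and 3.28 FPKM. The receptor gene and 1 of its ligand genes were thus both higher in day 5 DTA. The 12 other microglia-enriched genes had a median of 0.65 and none was called lower. Among those called higher, Fcrls, an Fc receptor-like protein, differed by 2.96 and Irf8, a myeloid transcription factor, by 2.06. None of 13 genes of ITAM and Fc receptor signalling reached 5 FPKM and none was called, though all 13 were above 0 (median 0.64). After median ratio scaling only Fcrls of the microglia-enriched genes was still called.

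Of 20 other genes of phagocytosis, lysosomes and lipid handling 7 were called, all of them higher, and the median was 0.31. Among the genes at 5 FPKM or more, the largest differences were those of Cd52, a leukocyte surface peptide (2.56), Cd44, a hyaluronan receptor (1.92), Lgals3bp, a galectin ligand induced by interferon (1.90), and Plin2, a lipid droplet coat protein (1.25). A further 6 genes of this list lay below 0, and after median ratio scaling 4 were called and 9 of the 20 lay at or below 0. Of 12 genes of Toll-like receptors and adaptors 1 was called, the adaptor gene Myd88 at 3.35, 3.84 and 9.13 FPKM, and all 12 were above 0 (median 0.48); the Myd88 call ended with either scaling.

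Markers of neutrophils and lymphocytes were scarce, and those of monocytes were higher in part. In day 5 DTA the summed level of 9 neutrophil markers was 1.17 FPKM and that of 13 T, NK and B cell markers 1.52, with 2 and 6 markers listed at 0. In the day 5 control these sums were 0.147 and 0.369 FPKM. No marker of either list reached 5 FPKM in a day 5 library, so the size rule could have called none. Of the 13 T, NK and B cell markers 5 were above 0 and 2 below. The largest difference, 0.84, was that of Cd79a, at 0.0757 FPKM in the control at day 1, 0.0227 in that at day 5 and 0.836 in DTA at day 5. None of 6 dendritic cell markers and none of 8 markers of perivascular and border macrophages was called, with medians of 0.15 and 0.10, though Stab1, a scavenger receptor of such macrophages, differed by 1.04 at 1.65 FPKM in day 5 DTA. No gene of these lists reached 5 FPKM in a day 5 library, so none could have been called. The border macrophage marker with the highest level, Lyve1, stood at 6.19 FPKM in the control at day 1, 3.66 in that at day 5 and 4.69 in DTA at day 5. Of 8 monocyte markers 3 were called, S100a4 (1.69), Fn1 (1.09) and Itga4 (1.00), genes that glia and vessels can also express; after median ratio scaling 1 was. The 8 summed to 18.6 FPKM in the control at day 1, 15.6 in that at day 5 and 39.2 in DTA at day 5. Among those not called, Ly6c2 stood at 1.20, 1.6 and 2.31 FPKM and Vcan at 1.83, 0.231 and 0.842. In day 5 DTA Plac8 stood at 0.127 FPKM and Chi3l3 was listed at 0. The part of monocytes in the members' values was not tested. Red cell markers, a measure of blood in the tissue, summed to 80.8 FPKM in the control at day 1, 32.5 in that at day 5 and 64.7 in DTA at day 5. Of the 42 members 29 were also lower in the control at day 5 than in that at day 1, among them Lyz2, Lgals3, Cd63, Cd9 and Lpl. Of all measured genes 34.3% were higher. The part of blood in the members' values was not tested.

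At day 1 the comparison covers 6 members: Ptprc, Cd68, Lyz2, Fcer1g, Fcgr3 and Cd63. None was called, with a median difference of 0.06 and a range from -0.28 to 0.56. Over all 5785 genes measured at day 1, 1.21% were called in either direction, and 2.67% of the 2623 genes at 5 FPKM or more. Only Cd63 reached 5 FPKM in a day 1 library, so the size rule could have called no other. Cd68 had the largest difference, at 0.982 FPKM in the control at day 1 and 1.92 in day 1 DTA, and at 1.52 in the control at day 5. Fcer1g stood at 0.988 FPKM and 1.14, and Lyz2 at 1.09 and 1.08. Fcgr3 stood at 0.804 and 0.486 FPKM, lower in DTA. Cd63 stood at 29.8 and 35.8 FPKM, a difference of 0.26 beside -0.62 between the controls.

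**Figure D4:**
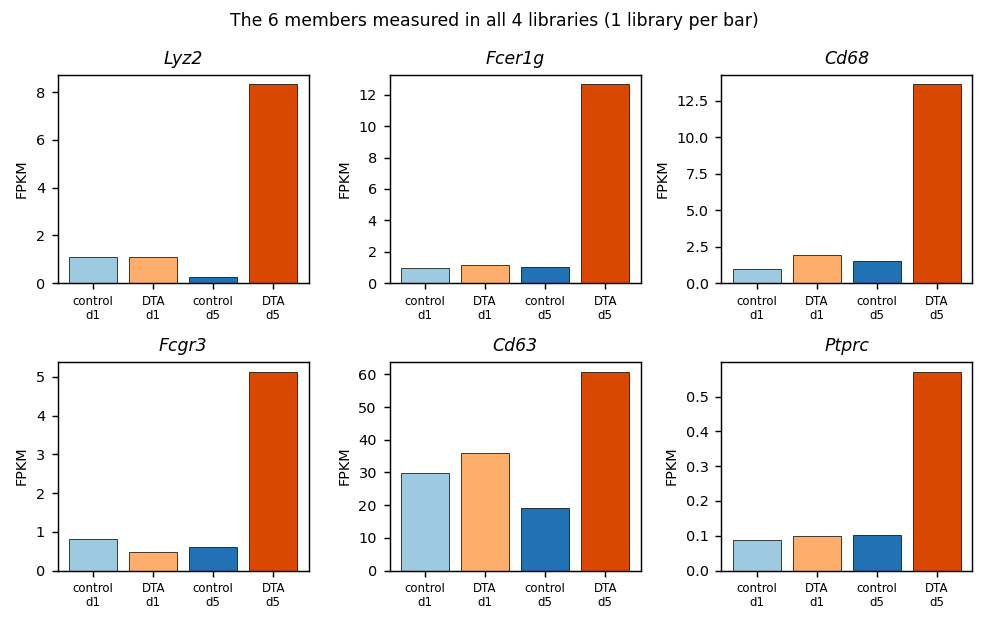
FPKM of the 6 members that have a value in all 4 libraries, 1 bar per library and 1 panel per gene with its own axis from 0. For each gene the bar of day 5 DTA is the highest, and the bars of day 1 DTA lie at 0.0992 FPKM for Ptprc and at 35.8 for Cd63.

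From day 1 to day 5 in DTA all 6 were higher, by 0.52 to 2.67, and 4 passed the size rule: Fcer1g (2.67), Cd68 (2.32), Lyz2 (2.16) and Fcgr3 (2.04). Among all genes in this comparison, which has no requirement on the controls, 1.3% were called higher, and 2.75% of those at 5 FPKM or more. Cd63 differed by 0.75 and Ptprc by 0.52. The same libraries differed in lens RNA: the 7 lens markers with a day 1 DTA value summed to 1851 FPKM there, and 6 of them were called lower at day 5, with a median of -6.75. The part of this in the members' values was not tested. The difference at day 5 exceeded that at day 1 by 2.88 for Lyz2, 2.62 for Fcer1g, 2.21 for Fcgr3, 1.98 for Cd68, 1.36 for Cd63 and 0.50 for Ptprc. The remaining 36 members measured at day 5 have no day 1 DTA value here.

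Between the controls no member was called, against 1.07% of all 22532 measured genes and 2.57% of those at 5 FPKM or more. Only 4 members reached 5 FPKM in a control, so the size rule could have called no other. The absolute difference between the controls had a median of 0.09 over the 42 members and reached 0.75, and 37 members differed by less than 0.5. Of the 42, 29 were lower in the control at day 5 and 13 higher, while 34.3% of all measured genes were higher. For 39 members the day 5 difference between DTA and control was larger in size than the difference between the controls. The exceptions were P2ry12, H2-Ab1 and Lpl. The share of all genes for which this holds was not computed.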

How the data were processed

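RNA from whole retina was measured in 4 libraries, 1 per group. The authors deposited FPKM values per gene with confidence bounds and a status; the build mm9 and the tools Cufflinks 2.1.1, CASAVA 1.8.2 and bcl2fastq 1.8.4 are named, per the submitters' processing notes, which give no role or order for them here. Neither the aligner nor the annotation was among the details at hand. FPKM values with status FAIL or HIDATA were read as missing, loci of a symbol were summed, and 1 was added to each locus start, since 10206 of 21187 compared starts then match the NCBIM37 annotation and 638 match as listed. Differences are of log2(FPKM + 1), computed with Python 3.11.15, pandas 2.3.3 and numpy 2.4.6. A fold is a ratio of FPKM and was computed where neither value is under 1 FPKM. The size rule was tested on libraries simulated from genes at 5 FPKM or more in the day 5 control. That simulation does not cover genes under 5 FPKM there or the spread between mice. Depth was estimated from the lowest FPKM steps of genes with a single transcript longer than 1500 bases, so fragment numbers are approximate and cover counting error only.

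Every member was described. From each pathway list up to 4 genes with the largest difference at 5 FPKM or more were named, and from each list of other cell types up to 3 with the highest level; other names were chosen after their values were seen. The members and lists were chosen with earlier results of these data known. Alternatives were other pseudocounts, floors, scalings and controls. Promoters are from RefSeq, matched by symbol, and do not cover every chromosome. The values of some genes of the lists are not reported here.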

Additional observations from a re-analysis of the deposited data

Results flagged for a closer look

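Lyz2 and Fcgr3 had differences between DTA and control of opposite sign at day 1 and day 5. For Lyz2 the difference of log2(FPKM + 1) was -0.0058 at day 1 and 2.88 at day 5. For Fcgr3 it was -0.28 at day 1 and 1.93 at day 5. With 1 library per group the difference between the days was not tested, and the day 1 value of Lyz2 is close to 0.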

How the results depend on the processing

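No paired analysis was possible because each group has 1 library. The number of members higher at day 5 was 16 as reported and fell to 7 with a floor of 10 FPKM. It was 11 with a pseudocount of 5, 14 under both scalings and 23 without a floor, and 16 under the 7 other alternatives, of which reading Spi1 from its older symbol was chosen after seeing the data. The share of all tested genes called higher, 6.74% as reported, was 6.92% with the floor of 10, 3.54% with the pseudocount of 5, 4.25% with median ratio scaling, 4.97% with the other scaling and 4.12% without a floor. The median day 5 difference of 1.30 became 2.04 with a pseudocount of 0.1, 0.53 with one of 5, 1.12 with median ratio scaling, 1.18 with scaling to the sum without rod markers and abundant genes, 1.11 against the day 1 control, and 1.93 over the members at 5 FPKM or more. Of the 17 members at 5 FPKM or more, 13 reached it in day 5 DTA alone. The median of 1.93 thus rests partly on selection by the library where they were high. Over all genes at the floor the median of 0.26 became 0.03 with median ratio scaling and 0.11 with the other. With a pseudocount of 5, Cx3cr1 (0.85), Csf1r (0.96), Fcgr3 (0.85), Gpnmb (0.89) and Axl (0.84) lost their call, and both scalings ended the calls of Cx3cr1 and Fcgr3, which then fell under the floor. No member was called lower at day 5, at day 1 or between the controls under any alternative run, and no called member changed sign. Depth limits the members with few fragments, such as Ccr2, Mrc1, H2-Aa and H2-Eb1, and the absence of replicates limits every value.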
